A study of Homo sapiens with 30 samples.

Results

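The 37 genes of the human mitochondrial genome were followed through 30 RNA-seq libraries. They were taken as every row of the count table whose gene symbol begins with MT-, which gave 13 mRNAs, 2 rRNAs and 22 tRNAs among 61487 genes in all. The choice used names and no measured value. Mitochondrial DNA is transcribed in the organelle from both strands into long precursors, and the tRNAs that lie between the coding genes are cut out to release the mRNAs and rRNAs. The 13 mRNAs encode subunits of respiratory complexes I, III and IV and of the ATP synthase (complex V), while all other subunits, the mitochondrial ribosomal proteins and the machinery that transcribes, cuts and adenylates mitochondrial RNA come from nuclear genes. Human mitochondrial genes have no introns, whereas most of the nuclear genes that serve them are spliced.

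The study treated human eHAP FNLS cells, a haploid derivative of the HAP1 line that carries the base editor FNLS, with DMSO or with pladienolide B (PB) at 2 nM for 3 h. PB is a macrolide that binds the SF3b complex of the U2 small nuclear ribonucleoprotein, in a pocket formed by SF3B1 and PHF5A, and blocks early spliceosome assembly. The genotypes were a control with a non-targeting sgRNA, PHF5A 2xTL (a 6-nt insertion), SF3B1 T1080I, SUGP1 E554K and SUGP1 G603N, each with DMSO and with PB in 3 libraries per group. SUGP1 is a G-patch protein that acts with SF3B1 in branch point selection. For each mutant the 3 libraries of a group came from 3 separate single-cell clones, so a replicate number names 1 clone under both treatments, and the control libraries were 3 replicates of 1 line. RNA was poly(A)-selected, and the counts therefore describe RNA that was captured by its tail or an internal run of A.

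Library totals ran from 31592500 to 75037300 counts. The haploid parent descends from a leukaemia, but the 7 haematopoietic markers examined (PTPRC, SPI1, CD33, ITGAM, GATA1, HBG1 and CD34) stayed below 1 CPM (counts scaled to a common library total) in every library, with a highest value of 0.863 CPM for ITGAM. Of the neural markers SOX2 ran from 626 to 1178 CPM and NES from 32.4 to 153, but MAP2 from 1.06 to 49.5 and TUBB3 from 1.72 to 7.61. Of the mesenchymal ones VIM ran from 193 to 386 CPM, FN1 from 71.7 to 268, CDH2 from 56.6 to 114 and COL1A1 from 3.14 to 20.7. Of the epithelial ones KRT18 ran from 18.4 to 68.3 CPM and KRT8 from 0.525 to 84.9, while EPCAM, CDH1 and KRT19 reached at most 1.29, 0.997 and 0.268.

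The ends of the mRNAs are shown first, because they tie these RNAs to the selection step: an mRNA that stops on T or TA has no complete stop codon until A residues are added to it. Of the 13, 6 end in this way and 7 end on a whole codon. The last bases of each mRNA follow, read 5′ to 3′ from the GENCODE transcripts (hg38, mitochondrial chromosome), with the final codon or its remaining part in capitals.
MT-ND1: tccagcattccccctcaaaccTA
MT-ND2: ccttttatactaataatcttaT
MT-CO3: tccatctattgatgagggtctT
MT-ND3: aaaggattagactgaaccgaaT
MT-ND4: atcattaccgggttttcctctT
MT-CYB: aacaaaatactcaaatgggccT
MT-CO1: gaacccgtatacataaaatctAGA
MT-ND6: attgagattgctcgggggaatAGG
MT-CO2: atagggcccgtatttaccctaTAG
MT-ATP8: cattcattgcccccacaatccTAG
MT-ATP6: ctctacctgcacgacaacacaTAA
MT-ND4L: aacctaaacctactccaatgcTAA
MT-ND5: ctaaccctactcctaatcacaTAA
Per length, the 6 mRNAs with an incomplete codon had a median mean level of 7794 CPM per kb (range 4794 to 9788), beside 7502 CPM per kb (2918 to 11477) for the 7 with a whole codon. These ranges overlap almost fully.

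The genes of 2 pairs each lie on a shared bicistronic mRNA, so that counts over the shared bases cannot be assigned to one frame. MT-ATP8 (chrM:8366-8572) and MT-ATP6 (chrM:8527-9207) share 46 bases, and MT-ND4L (chrM:10470-10766) and MT-ND4 (chrM:10760-12137) share 7. The 2 stretches are printed with the shared bases in capitals.
MT-ATP8 and MT-ATP6: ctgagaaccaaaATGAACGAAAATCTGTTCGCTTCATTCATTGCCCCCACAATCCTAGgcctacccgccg
MT-ND4L and MT-ND4: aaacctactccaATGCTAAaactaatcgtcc
Within a library the per-length level of MT-ATP8 was 0.397 to 0.692 times that of MT-ATP6 (median 0.600). The ratio of MT-ND4L to MT-ND4 was tighter, from 0.762 to 0.912 (median 0.826). No source used here says how counts over the shared bases were assigned.

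Mitochondrial genes held between 10.1% and 17.9% of all counts in a library (median 11.3%). The 13 mRNAs took 6.71% to 13.2%, the 2 rRNAs 2.20% to 4.69% and the 22 tRNAs 0.0206% to 0.0757%. The highest mRNA share, 13.2%, belonged to the third line of SUGP1 E554K with PB, followed by the second E554K line with PB at 11.2% and the third with DMSO at 11.05%. In the second SUGP1 G603N line the share was 10.4% with DMSO and 10.5% with PB. The SF3B1 T1080I libraries held 6.71% to 7.81%, which includes the lowest value of the series. As these are shares of a bulk library, more mitochondrial RNA per cell and less of other RNA cannot be told apart.

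**Figure D1:**
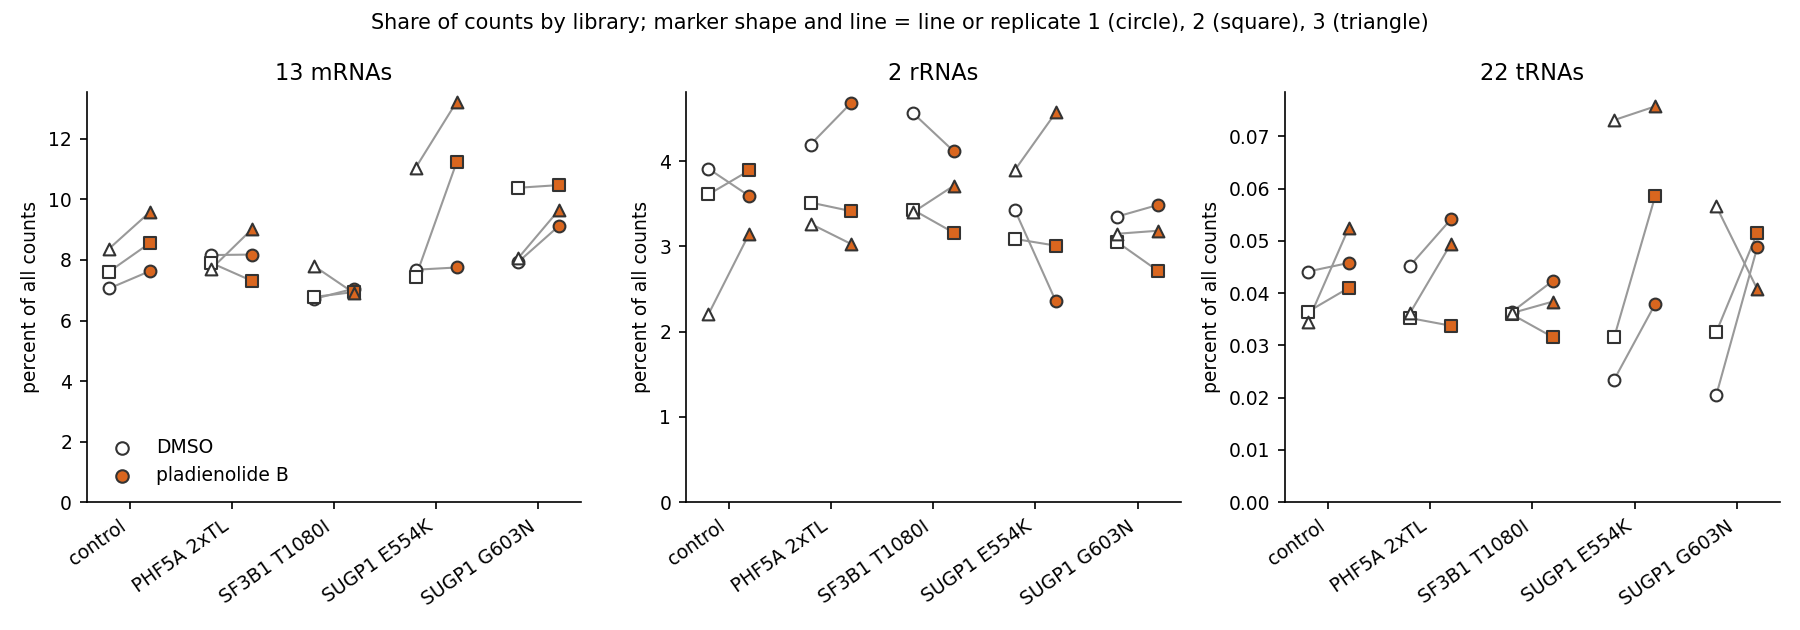
Percent of all counts held by the 13 mRNAs, 2 rRNAs and 22 tRNAs in each of the 30 libraries; open markers are DMSO, filled markers are pladienolide B, and a line joins the libraries of 1 clone (for the control, of 1 replicate number). The mRNA share was higher with the drug in 13 of 15 pairs, and the third SUGP1 E554K line stands at 11.05% and 13.2%.

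Levels were compared between genes as CPM per kilobase of gene length, averaged over the 30 libraries, with the SD over libraries. MT-RNR2, the large-subunit ribosomal RNA, had 14348 ± 2417 and MT-RNR1, the small-subunit RNA, 12925 ± 2728. Their order was not fixed: MT-RNR2 was the higher in 22 of 30 libraries, and the ratio of MT-RNR1 to MT-RNR2 ran from 0.682 to 1.23. Among mRNAs, MT-ATP6, a subunit of the proton channel of the ATP synthase, had 11477 ± 2005 and MT-ATP8, its small partner, 6780 ± 1432. Both are frames of the same bicistronic RNA, so these values are counts per gene length and not levels of 2 separate RNAs. MT-ATP6 was the highest mRNA in 30 of 30 libraries.

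The 3 catalytic-core subunits of cytochrome c oxidase (complex IV) came next in part. MT-CO3 had 9788 ± 1900, MT-CO2, which takes electrons from cytochrome c, 8971 ± 2112, and MT-CO1, which holds the haem centres, 8729 ± 1635. MT-CO3 ranked between 2 and 5, whereas MT-CO1 and MT-CO2 each ranged from rank 2 to rank 9, so their places depend on the library. MT-CYB, the cytochrome b of complex III, stood lower at 5729 ± 1221.

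The 7 subunits of complex I, the NADH dehydrogenase, covered the widest span. MT-ND4 had 9131 ± 1781, MT-ND1 7874 ± 1609, MT-ND2 7713 ± 1234 and MT-ND4L 7502 ± 1341. MT-ND3 followed at 4794 ± 1100 and MT-ND5, the longest mRNA, at 4324 ± 849. MT-ND6 was last in 30 of 30 libraries at 2918 ± 738, and it is the 1 mRNA read from the strand opposite to the other 12 (the light strand; chrM:14149-14673). Several neighbours in this order did not separate: MT-ND4 was above MT-CO2 in 16 of 30 libraries, MT-CO2 above MT-CO1 in 18, and MT-ND1 above MT-ND2 in 19.

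**Figure D2:**
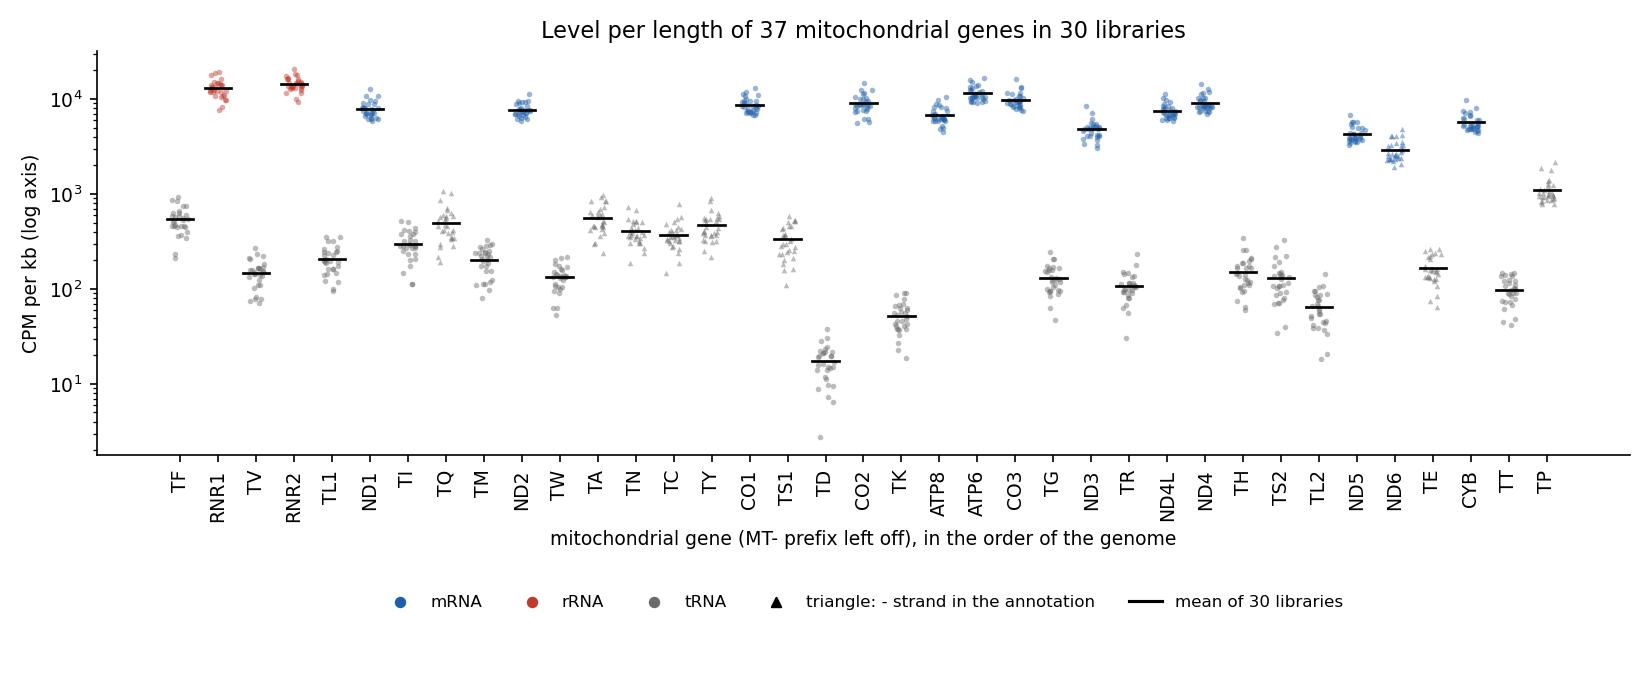
Level of the 37 genes in CPM per kb (log axis) in genome order; each point is 1 of 30 libraries, black bars are means, triangles mark genes on the - strand. MT-ATP6 is the highest and MT-ND6 the lowest mRNA in every library, and the tRNAs lie below all mRNAs by their means.

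Part of this order depended on copies of mitochondrial DNA in the nuclear genome. The table holds 404 nuclear pseudogenes named after mitochondrial genes, and 5.15% to 8.25% of the counts of mitochondrial genes and these copies together fell on the copies. MTATP6P1 (chr1:633696-634376), MTCO1P12 (chr1:631074-632616) and MTND2P28 (chr1:629640-630683) carried 71.9% of them, with means of 2227, 2139 and 1847 CPM. The share on copies differed by parent gene: 19.9% to 23.8% of the summed counts for MT-ATP6, 16.3% to 20.3% for MT-ND2 and 11.03% to 17.1% for MT-CO1, but 0.121% to 0.543% for MT-ND3. Whether those reads arose from the organelle or the nucleus was not tested. With the counts of copies added to their parents, an alternative chosen after the values were seen, MT-CO1 moved from rank 5 to 3 and MT-ND2 from 7 to 4, while MT-ND4 moved from 3 to 6. MT-ATP6, MT-CO3 and MT-ND6 kept ranks 1, 2 and 13.

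The tRNAs were far below the mRNAs, with a median of 183 CPM per kb over the 22 genes. A tRNA is shorter than the 150-base reads, so a count over a tRNA gene can come from a longer RNA that still contains it, and the table does not separate these cases. MT-TP, the proline tRNA, was the highest at 1104 ± 330 CPM per kb and led in 30 of 30 libraries. MT-TA (alanine, 560 ± 189) and MT-TF (phenylalanine, 539 ± 170) followed without a fixed order, MT-TA being higher in 19 of 30. At the low end stood MT-TD (aspartate, 17.3 ± 7.5), MT-TK (lysine, 52.2 ± 18.9) and MT-TL2 (the leucine tRNA for CUN codons, 64.7 ± 28.1).

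The sequences of the highest and lowest tRNA are given with that of MT-TW, the tryptophan tRNA to which the drug results return. Each is the whole gene, written 5′ to 3′ along the tRNA.
MT-TP: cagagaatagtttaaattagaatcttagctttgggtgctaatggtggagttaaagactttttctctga
MT-TD: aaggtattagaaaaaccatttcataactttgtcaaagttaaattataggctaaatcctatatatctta
MT-TW: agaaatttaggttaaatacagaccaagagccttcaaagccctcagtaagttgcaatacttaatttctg
All 3 are 68 bases long, and MT-TP exceeded MT-TD in each library although both are equally long. MT-TP (chrM:15956-16023) lies on the - strand, MT-TD (chrM:7518-7585) and MT-TW (chrM:5512-5579) on the + strand. Over all tRNAs, the 8 of the light strand had a median of 436 CPM per kb (164 to 1104) and the 14 of the heavy strand 132 CPM per kb (17.3 to 539). Whether reads were counted by strand is not stated in any source used here.

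Does PB change mitochondrial RNA? In the fit of 10 group means without a block, edgeR's quasi-likelihood test with Benjamini-Hochberg adjustment over 31444 genes called none of the 37 mitochondrial genes in any genotype. In the control the 13 mRNAs all had positive log2 fold changes, from 0.15 to 0.30 with a median of 0.20, beside a median of 0.02 over all genes tested. The 13 come from shared precursors and the same libraries, so their signs are not independent results. Among the PHF5A 2xTL clones, 0 of 13 were higher with PB in line 2 and 13 of 13 in line 3. The median of the 13 was 0.03 in PHF5A 2xTL (11 of 13 positive), -0.00 in SF3B1 T1080I (6 of 13), 0.40 in SUGP1 E554K (13 of 13) and 0.19 in SUGP1 G603N (13 of 13). Single libraries moved these medians: with each left out in turn, the median ran from 0.18 (without PB line 3) to 0.60 (without PB line 1) in E554K, from 0.02 (without DMSO line 3) to 0.32 (without DMSO line 2) in G603N, and from 0.12 (without DMSO line 1) to 0.28 (without PB line 1) in the control. The share of all genes called in these contrasts was 4.44% in the control, 0.00318% in PHF5A 2xTL, 0.00318% in SF3B1 T1080I, 4.39% in E554K and 3.85% in G603N. At an unadjusted p under 0.05 there were 6 mRNAs and 1 tRNA in E554K (16.2% of all genes), 2 tRNAs in G603N (16.1%) and none in the control (13.9%), PHF5A 2xTL (1.29%) or SF3B1 T1080I (0.875%). DESeq2 called none in any of the 5.

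Libraries of 1 clone deviated together, so the fit with the line as a block is given beside it. Averaged over the 5 genotypes, 10 of 13 mRNAs and 18 of 22 tRNAs were then higher with PB and none was lower, against 8.49% of all genes called higher. Without the block none of the 37 passed in edgeR, where 4.80% of all genes were called higher and 8.20% lower. At an unadjusted p under 0.05 there were 5 mRNAs and 7 tRNAs (24.8% of all genes). DESeq2 called MT-TW, beside 4803 of 31444 genes. In the fit without the block the 13 mRNAs had a median mean effect of 0.16, with values from 0.11 to 0.21, and the 22 tRNAs 0.30, from 0.24 to 0.40, beside 0.02 over all genes. The nuclear-encoded complex subunits and mitochondrial ribosomal proteins described below also had medians above that of all genes. The rRNAs had mean effects of 0.00 ± 0.10 (SE) for MT-RNR1 and 0.04 ± 0.09 for MT-RNR2 without the block, and neither passed with it. A difference between rRNAs and mRNAs was not shown: their log2 ratio changed by -0.13 (adjusted exact permutation p = 0.30, and 0.14 in pairs).

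Among complex I subunits, MT-ND3 had the largest mean effect, 0.22 ± 0.05 with the block (adjusted p = 0.0029, edgeR). Its normalised CPM in the control was 1240, 1270 and 1392 with DMSO and 1423, 1424 and 1761 with PB. In SUGP1 E554K the lines had 1158, 1148 and 2466 with DMSO and 1422, 2272 and 3064 with PB. SUGP1 G603N gave 1118, 1806 and 1672 with DMSO and 1693, 1711 and 2024 with PB. The groups did not overlap in the control but did in both SUGP1 genotypes, where the same clone was higher with PB in 5 of 6 pairs. The PHF5A 2xTL lines had 1706, 1665 and 1709 with DMSO and 1787, 1530 and 1934 with PB, and the SF3B1 T1080I lines 1427, 1525 and 1741 with DMSO and 1608, 1765 and 1439 with PB. In these 2 genotypes the values lay among each other, with 4 of 6 pairs higher. With the block MT-ND6 (0.21 ± 0.06), MT-ND4 (0.16 ± 0.05), MT-ND2 (0.16 ± 0.05) and MT-ND5 (0.15 ± 0.04) were also higher. MT-ND1 (0.12 ± 0.05, adjusted p = 0.12 by edgeR) and MT-ND4L (0.12 ± 0.05, adjusted p = 0.092) did not pass. MT-ND4L lies on the same bicistronic RNA as MT-ND4, so their split does not separate 2 RNAs.

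Both ATP synthase genes passed with the block, MT-ATP6 at 0.16 ± 0.05 (adjusted p = 0.020 by edgeR) and MT-ATP8 at 0.20 ± 0.06 (adjusted p = 0.025). As frames of the same bicistronic RNA they are not separate results. MT-ATP6 had 6133, 6795 and 8050 normalised CPM in the control with DMSO and 7049, 8439 and 8851 with PB. In the E554K lines it went from 6895, 7020 and 9292 to 7316, 11303 and 11943, and in the G603N lines from 7994, 9824 and 6705 to 8514, 10068 and 9191. Every one of these 9 pairs was higher with PB, though the groups overlapped. The 6 pairs of PHF5A 2xTL and SF3B1 T1080I were split, 3 higher and 3 lower. Of the complex IV subunits in the same edgeR fit, MT-CO3 (0.17 ± 0.05, adjusted p = 0.011) and MT-CO2 (0.14 ± 0.05, adjusted p = 0.038) passed. MT-CO1 (0.12 ± 0.05, adjusted p = 0.13 by edgeR) did not. MT-CYB was higher as well, by 0.16 ± 0.05 with an adjusted p of 0.012 in the edgeR fit with the block.

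Of single genotypes, SUGP1 E554K gave most of the calls under the block: 9 of 13 mRNAs and 5 tRNAs were higher there, against 4.05% of all genes called higher. MT-ATP8 (0.57 ± 0.14, adjusted p = 0.0078 by edgeR) and MT-ND3 (0.53 ± 0.12, adjusted p = 0.0035) led the mRNAs. The 4 that did not pass were MT-ND1, MT-CO1, MT-ND4L and MT-ND5, with adjusted p from 0.068 to 0.10. The tRNAs called were MT-TL1, MT-TQ, MT-TW, MT-TC and MT-TY, with log2 fold changes of 0.80, 0.99, 0.65, 0.81 and 0.73. Its 3 clones were not alike, since the median change of the 13 mRNAs was 0.05 in line 1, 0.72 in line 2 and 0.36 in line 3. Without the third E554K line, whose mitochondrial share is the highest, and with no block, MT-ND3 and 3 tRNAs passed in this genotype. Of all genes 926 of 33439 passed there. That alternative was chosen after the data were seen. In G603N the block gave MT-TW alone (3.00% of all genes were called higher), and in the control, PHF5A 2xTL and SF3B1 T1080I it gave none (9.84%, 0.00318% and 0.0159% of all genes in either direction).

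**Figure D3:**
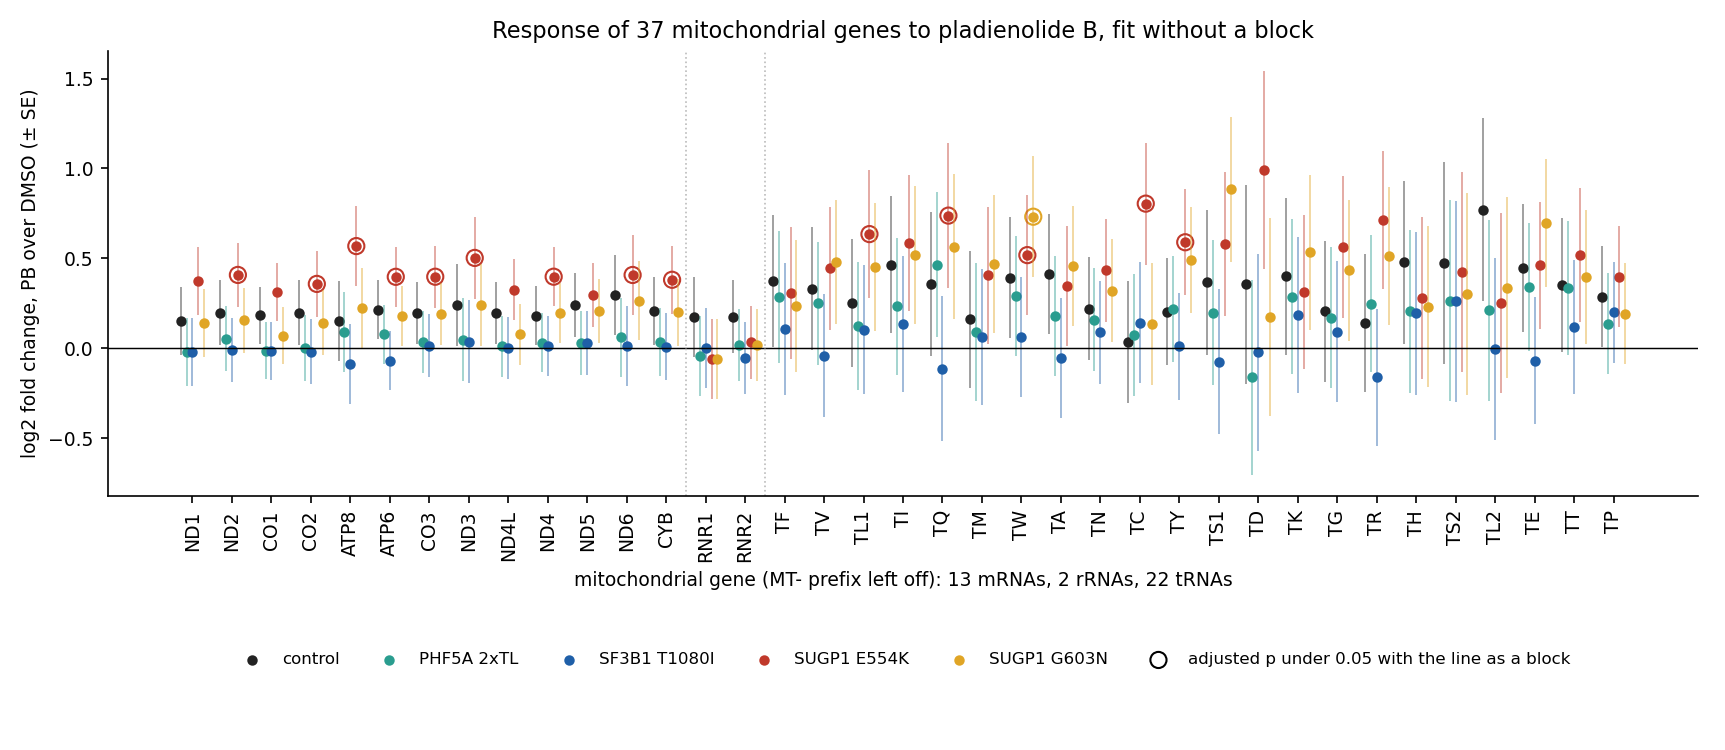
Log2 fold change of each gene with pladienolide B over DMSO in the 5 genotypes, with SE, from the fit without a block; rings mark genes called with the line as a block. Points of SUGP1 E554K lie highest for most mRNAs (median 0.40), those of SF3B1 T1080I and PHF5A 2xTL have medians of -0.00 and 0.03, and the rRNAs have a mean effect of 0.00 and 0.04.

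MT-TW had the lowest adjusted p of the 37 for the mean effect, 0.080 without and 2.43e-04 with the block in edgeR. With DMSO its normalised CPM was 6.44, 6.02 and 6.54 in the control, and with PB it was 7.08, 9.02 and 8.84. In SUGP1 E554K it went from 4.38, 7.55 and 14.2 to 9.76, 12.2 and 15.6, and in SUGP1 G603N from 3.83, 4.39 and 11.99 to 9.42, 9.40 and 14.8. It was higher with PB in 14 of 15 pairs, the exception being the second SF3B1 T1080I line at 9.01 and 7.74. The other tRNAs were less even. In G603N their median change was 1.46 in line 1 and 0.90 in line 2 but -0.56 in line 3.

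The libraries behind those tRNA changes also stood apart in their share of processed pseudogenes, which are intronless copies of nuclear genes. Processed nuclear pseudogenes other than mitochondrial copies took 1.18% and 1.31% of counts in G603N lines 1 and 2 with DMSO and 1.27% in E554K line 1 with DMSO, the 3 lowest values of the series, and 2.17% in G603N line 3 with DMSO. With PB the E554K and G603N libraries had 1.54% to 2.08%. The tRNA share of counts was likewise lowest in G603N line 1 (0.0206%) and E554K line 1 (0.0235%) with DMSO. It was 0.0326% in G603N line 2 and 0.0566% in G603N line 3, both with DMSO. The part of this library difference in the tRNA result was not tested. Leaving out the DMSO library of G603N line 3 gave 7 tRNA calls in G603N and 7 for the mean effect, with no block. With each library left out in turn, calls of rRNAs and tRNAs ran from 0 to 7 in G603N and 0 to 12 for the mean. The share of all genes called in those fits is not given here.

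As a share of all counts, the 13 mRNAs had 8.84% with PB and 8.04% with DMSO, averaged over the 5 genotypes. Treatment labels exchanged within genotypes gave an exact permutation p of 0.088 (two-sided, 3200000 rearrangements, adjusted p = 0.255 over 5 measures). Over same-numbered pairs the share was higher in 13 of 15, with an exact sign-flip permutation p of 0.013 and an adjusted p of 0.063, which did not pass. The share of all 37 genes was 12.4% with PB and 11.6% with DMSO (9 of 15 pairs higher; adjusted permutation p = 0.255, and 0.093 in pairs). In the control this share was 11.02%, 11.26% and 10.6% with DMSO and 11.27%, 12.49% and 12.8% with PB, groups that did not overlap. An exact test of 3 against 3 cannot give less than p = 0.1. The difference did not pass after adjustment over all comparisons of this kind.

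Ratios within the mitochondrial RNA moved less than their spread. The log2 ratio of rRNA to mRNA counts changed by -0.13 with PB (4 of 15 pairs higher, adjusted exact permutation p = 0.30), that of tRNA to mRNA by 0.19 (11 of 15, adjusted p = 0.255) and that of MT-ND6 to the 12 heavy-strand mRNAs by 0.07 (10 of 15, adjusted p = 0.396). In E554K alone the rRNA to mRNA ratio did not overlap between groups (exact permutation p = 0.1, the smallest possible). It was -1.16, -1.27 and -1.50 with DMSO and -1.72, -1.90 and -1.53 with PB. The difference did not pass after adjustment over all comparisons of this kind, and line 3 moved only from -1.50 to -1.53.

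PB binds a pocket that the PHF5A 2xTL and SF3B1 T1080I mutations alter, so the response of their lines was set against that of the control and SUGP1 lines. The difference in response, pocket mutants minus the others, was negative for all 13 mRNAs, with a median of -0.24 on the log2 scale (range -0.31 to -0.19). It was also negative for all 22 tRNAs (median -0.31) and both rRNAs (-0.04 and -0.09). Genes that move together within a library do not give independent signs. None of the 37 passed edgeR's test of the difference, where 2.90% of all genes did without a block and 7.59% with it. The lowest adjusted p of the mRNAs in edgeR was 0.51 without a block and 0.098 with it. None of the 37 had an unadjusted p under 0.05 without a block (12.8% of all genes did), and DESeq2 called none. By pair, the mRNA share was higher with PB in 9 of 9 control and SUGP1 pairs (mean 1.29 percentage points) and in 4 of 6 pocket-mutant pairs (mean 0.0558). An exact permutation test over the 15 same-numbered pairs, chosen after these values were seen, gave p = 0.033 and an adjusted p of 0.165 over 5 measures. It took all pairs as independent, although 3 are replicates of 1 control line and clones share a genotype. Its p therefore does not measure the spread between genotypes. Against the control alone, the mRNA response differed by a median of -0.17 in PHF5A 2xTL, -0.20 in SF3B1 T1080I, 0.18 in E554K and -0.03 in G603N. These 4 differences share the control libraries. No mitochondrial gene was called in them by edgeR (0.274%, 0.321%, 0% and 0% of all genes were, in the same order, and 1.70%, 1.90%, 0% and 0% with the block) or by DESeq2. None had an unadjusted p under 0.05 in edgeR, where 6.33%, 6.72%, 2.06% and 2.80% of all genes did.

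Without drug the mutants were compared with the control in DMSO. The median log2 difference of the 13 mRNAs was 0.07 in PHF5A 2xTL, -0.08 in SF3B1 T1080I, 0.21 in SUGP1 E554K and 0.25 in SUGP1 G603N, and no mitochondrial gene was called by edgeR or DESeq2. Few genes of any kind passed in edgeR: 0.00954% in PHF5A 2xTL, 0% in SF3B1 T1080I and E554K, and 0.0127% in G603N. No mitochondrial gene had an unadjusted p under 0.05, against 4.57%, 3.73%, 3.85% and 5.04% of all genes. The largest shift of an mRNA was MT-ND3 in PHF5A 2xTL, 0.38 with a 95% interval from -0.10 to 0.86. MT-CO2 in SF3B1 T1080I was lower by 0.35, with an interval from -0.73 to 0.03. E554K and G603N differed from each other by a median of -0.04, with no mitochondrial gene called by edgeR or DESeq2 or at an unadjusted p under 0.05 (4.21% of all genes).

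For most mRNAs the share of the mRNA pool had a smaller SD within same-numbered pairs than between lines of 1 genotype. The 3 control replicates were counted as lines here. These SDs are not of the same kind. The SD within pairs is for single libraries and includes any drug effect, and that between lines is for the mean of each pair. MT-CO2 made up 6.28% and 5.58% of the 13 mRNAs in SF3B1 T1080I lines 1 and 2 with DMSO and 6.03% and 5.66% with PB, while line 3 of the same genotype had 6.99% and 7.17%. In all other genotypes it held 6.69% to 8.18%. The SD within pairs was 0.201 percentage points for MT-CO2, against 0.413 between lines of 1 genotype. MT-ND2 ran from 9.56% to 11.02% in the 12 PHF5A 2xTL and SF3B1 T1080I libraries and from 8.22% to 9.56% in the 12 SUGP1 libraries, with the control at 9.09% to 9.70% between them. MT-CO1 was 19.3% and 18.0% in E554K line 1 but 13.2% and 14.2% in G603N line 3, for DMSO and PB in turn. Of the 13 mRNAs, MT-ATP8, MT-ND4L and MT-ND6 varied more within pairs than between lines. The differences in makeup are given as a description, and no test was run on them.

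**Figure D4:**
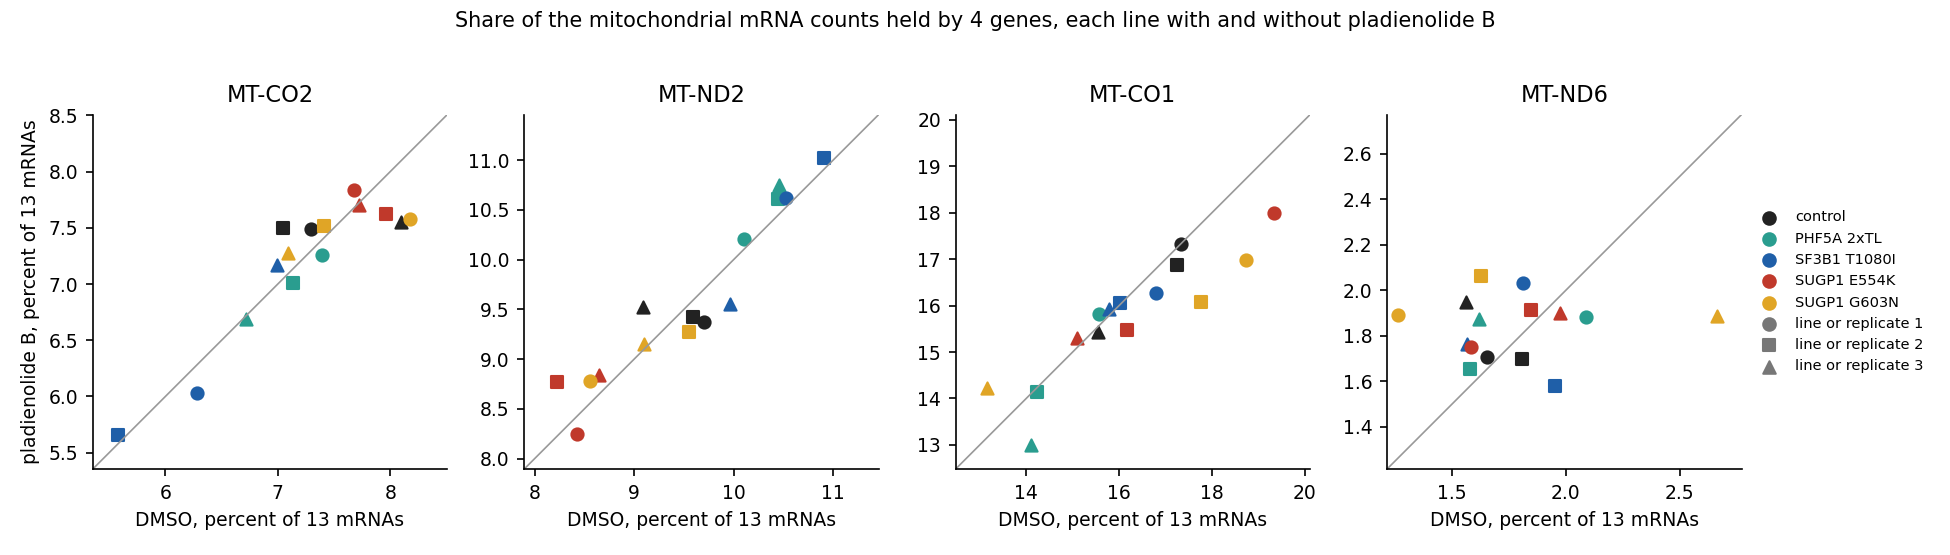
Share of the 13-mRNA counts held by MT-CO2, MT-ND2, MT-CO1 and MT-ND6 in each line, with DMSO on the x axis and pladienolide B on the y axis (percent of the 13 mRNAs); the grey line marks equal shares. Lines keep their place along the diagonal for the first 3 genes, with SF3B1 T1080I lines 1 and 2 low for MT-CO2, whereas MT-ND6 scatters and G603N line 3 sits at 2.67% and 1.89%.

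Nuclear genes that build and serve the mitochondrial genome were counted in 4 lists, to be read beside the 4.80% of all genes called higher and 8.20% called lower for the mean PB effect without the block. With the block, 2671 of 31444 genes were higher and 4100 lower. With upper-quartile scaling the balance over all genes turned, to 3069 higher and 1816 lower. Of 21 genes for transcription and replication of mitochondrial DNA, edgeR called 1 higher and 6 lower for the mean PB effect, 5 and 7 with the block, and 5 and 5 with upper-quartile scaling. In the control 4 of the 21 were lower, where 1050 of all 31444 genes were. MTRES1, a mitochondrial RNA-binding factor, had a log2 fold change of -1.01 ± 0.19. DNA2, a helicase and nuclease that works in nucleus and mitochondria, had -0.78 ± 0.15. MTERF3, a regulator of mitochondrial transcription and ribosome assembly, had -0.56 ± 0.13, and TOP3A, the topoisomerase that separates mitochondrial DNA, -0.43 ± 0.11. MTRES1 went from 13.7 ± 0.8 (SD, n = 3) to 6.83 ± 0.63 normalised CPM, and its groups lay far apart. SSBP1, the single-strand DNA-binding protein of the mitochondrial replisome, was the 1 member called higher for the mean effect without the block (0.18 ± 0.05, adjusted p = 0.021 by edgeR). In 15 of the 30 fits that left out 1 library, no member of this list was called higher.

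Among 40 genes for processing, adenylation and decay of mitochondrial RNA, 7 were higher and 7 lower for the mean effect, 9 and 8 with the block, and 9 and 5 with upper-quartile scaling. PTCD2, a pentatricopeptide protein linked to processing of the cytochrome b transcript, fell in the control from 28.2 ± 4.5 to 11.2 ± 1.8 normalised CPM (log2 fold change -1.33 ± 0.17, adjusted p = 1.83e-05 by edgeR). It fell in E554K by 1.31 and in G603N by 1.24. PTCD2 overlaps MRPS27 in the annotation, so its reads and those of MRPS27 may not be separable if strand was not used. Of the nuclear genes named here and below, DNA2, TOP3A, SSBP1, ATP5IF1, NDUFB9 and MRPS25 also overlap other tested genes, with the same limit. MRM1, a methyltransferase of the large mitochondrial rRNA, had -1.61 ± 0.32 in the control and was low, at 12.53 ± 4.5 and 4.10 ± 0.46 normalised CPM. FASTK and ANGEL2 were lower too, with -0.84 ± 0.17 and -0.62 ± 0.16. TRMT10C, a subunit of the RNase P that cuts the 5′ ends of mitochondrial tRNAs, rose by 0.51 ± 0.15 in the control and 0.65 ± 0.15 in E554K. MTPAP, the mitochondrial poly(A) polymerase, was named after its value was seen, and rose by 0.46 ± 0.12 in E554K.

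The response of 2 of the 21 genes and 3 of the 40 differed between the SF3b-pocket mutants and the other genotypes in edgeR's test, where 2.90% of all genes did. With the block it was 5 of 21 and 9 of 40, against 7.59% of all genes. Of the 75 complex subunits and 80 ribosomal proteins described next, none differed without the block, and 5 and 3 did with it. PTCD2 (difference 1.12 ± 0.16), MRM1 (1.15 ± 0.29), DNA2 (0.62 ± 0.14) and TOP3A (0.41 ± 0.10) had a positive difference, pocket mutants minus the others, and TRMT10C (-0.49 ± 0.14) a negative one. No mitochondrial gene differed in the same test, as given above.

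Of 75 nuclear-encoded subunits of complexes I, III, IV and V, 20 were higher and none lower for the mean effect, with a median of 0.15 on the log2 scale in the edgeR fit. With the block 49 were higher and 2 lower, and with upper-quartile scaling 56 were higher. The count without the block rested on single libraries, since it ran from 9 to 29 with each library left out in turn. It was 9 to 12 without any single one of PHF5A 2xTL DMSO lines 2 and 3 or PB lines 1 to 3, E554K DMSO lines 1 and 2, SF3B1 T1080I DMSO lines 1 and 2 or PB line 3, or control DMSO lines 1 and 2. ATP5IF1, the inhibitor of the ATP synthase (0.25 ± 0.05), NDUFA11 of complex I (0.34 ± 0.08), COX6A1 of complex IV (0.23 ± 0.06) and NDUFB9 of complex I (0.24 ± 0.06) had the lowest p. Of 80 mitochondrial ribosomal proteins tested, 16 were higher and 2 lower, the latter being MRPS25 (-0.42 ± 0.06) and MRPS31 (-0.27 ± 0.06). With the block 30 were higher and 4 lower, and with upper-quartile scaling 40 and 2. Leaving out each library gave 11 to 23 calls in all, the fewest without control DMSO line 2. With no low-count filter 11 of the 75 subunits and 11 of the 80 ribosomal proteins were called, beside 3406 of 57331 genes. The median over the 80 was 0.10, and the 2 rRNAs that these proteins bind had a median of 0.02. The difference between these medians was not tested.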

How the data were processed

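Total RNA of 30 samples was poly(A)-selected and sequenced as paired 150-base reads. The authors deposited estimated counts per gene and library, which were not normalised and of which 65.5% of the values above 0 were not whole. The submitters' processing notes name UMI-tools, STAR, SAMtools 1.10 and hg38. No source used here gives the counting program, its annotation, its use of strand or its handling of multi-mapping reads. Gene lengths were used as deposited by the authors.

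Counts were rounded to whole numbers and fitted with edgeR 4.0.16 in R 4.3.3 (TMM scaling, filterByExpr, quasi-likelihood test) over all 30 libraries with 10 group means and 16 comparisons. Of 61487 genes 31444 were tested, all 37 mitochondrial genes among them, and p-values were adjusted by Benjamini-Hochberg over all of them with a threshold of 0.05. The SE of a log2 fold change was derived from its F statistic and is approximate. DESeq2 1.42.0, other scalings, no filter, the compared groups alone, a block and the leaving out of each library were alternatives. The script was tested on simulated data.

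Normalised CPM used TMM library sizes, and CPM per kb used library totals and gene length. Library-level shares and ratios were tested by exact permutation, with all rearrangements enumerated (numpy 2.4.6). Counts set the precision of each value. The edgeR fit over all libraries gave each gene a spread shared by all groups. Its p-values in the control therefore rest also on the spread between mutant clones. Tests on the control libraries alone measure only the spread between replicates of 1 line. Same-numbered mutant libraries are 1 clone by the labels. Over 11963 nuclear genes the deviations from the group means correlated within each pair, at 0.406, 0.213 and 0.439 in the control and 0.432 to 0.837 in the mutants, so the number was taken as a pair in drug comparisons. All mRNAs and rRNAs were named, with tRNAs among the 3 highest or 3 lowest or called, and up to 4 called members per nuclear list in order of p. The members and lists were chosen with earlier results of these data known.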

Additional observations from a re-analysis of the deposited data

Results flagged for a closer look

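The response of nuclear genes that serve the mitochondrial genome differed between genotypes in 7 tests of the difference itself (edgeR, adjusted over all genes), among 4 lists of 21, 40, 80 and 75 genes. Between the SF3b-pocket mutants (PHF5A 2xTL and SF3B1 T1080I) and the other 3 genotypes, the log2 response differed by 1.12 for PTCD2, 1.15 for MRM1, 0.62 for DNA2, 0.41 for TOP3A and -0.49 for TRMT10C; 2.90% of all genes differed in that test. Against the control alone, PTCD2 differed by 1.07 in PHF5A 2xTL, with an adjusted p of 0.04998, and by 1.24 in SF3B1 T1080I, with an adjusted p of 0.0169; of all genes, 0.274% and 0.321% did. No mitochondrial gene was among these differences.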

How the results depend on the processing

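With the line as a replicate block, calls among mitochondrial mRNAs went from 0 to 9 in SUGP1 E554K and 10 for the mean effect, and among rRNAs and tRNAs from 0 to 5 in E554K, 1 in G603N and 18 for the mean; the block changed no other call of a mitochondrial gene. In DMSO, mutants and control share only a number, and blocking on it called 0 mitochondrial genes. Upper-quartile factors called 3 mRNAs and 1 tRNA for the mean effect, where 4885 of 31444 genes were called. These factors moved the median of all genes there from 0.02 to 0.10 and in the control from 0.02 to 0.15. DESeq2 called 1 tRNA for the mean effect, beside 4803 of 31444 genes. Fitting the control groups alone called 1 tRNA, beside 2397 of 24190 genes. Without the third E554K line, chosen after seeing the data, 1 mRNA and 3 tRNAs were called in E554K, and 1 and 7 for the mean. Of all 33439 genes in that fit, 926 were called in E554K and 4344 for the mean. Leaving out each library gave 0 to 6 mRNAs and 0 to 6 tRNAs in E554K, 0 to 7 tRNAs in G603N, and 0 to 2 mRNAs and 0 to 12 tRNAs for the mean. The libraries behind these were E554K DMSO line 3 (3 and 6, mean 1 and 12), E554K PB line 1 (6 mRNAs, mean 2) and G603N DMSO line 3 (7, mean 7). The share of all genes called in those fits is not given here. In E554K, tRNA changes that were positive became negative without DMSO line 1: MT-TF -0.034, MT-TK -0.0467, MT-TH -0.102, MT-TS2 -0.0356 and MT-TL2 -0.0705. Without PB line 3, MT-TK was -0.00764, MT-TH -0.0382 and MT-TS2 -0.0120. Over all libraries left out, the highest values of these 5 were 1.02, 0.89, 0.73, 1.85 and 0.65. Over all genes, calls went with the block from 1395 to 3095 in the control, 1381 to 3757 in E554K, 1211 to 2964 in G603N, 4089 to 6771 for the mean, 86 to 533 for PHF5A 2xTL minus control, 101 to 597 for SF3B1 T1080I minus control and 912 to 2388 for the pocket comparison. DESeq2 called 2229 in E554K, 1828 in G603N, 291 and 275 in those differences with the control and 1449 in the pocket comparison. Groups fitted alone called 2397 in the control but 78 in E554K and 1 in G603N, and the cause was not tested; the differences gave 208 and 306. With no low-count filter there were 797 in G603N, 55 and 53 in the differences, and upper-quartile factors gave 58 for SF3B1 T1080I. In DMSO, PHF5A 2xTL had 3 calls, 35 by DESeq2, 21 alone, 11 unfiltered, 5 by upper quartile and 7 blocked on number; SF3B1 T1080I had 0, 48 by DESeq2, 2 alone and 8 unfiltered. tRNA counts are the lowest, MT-TD reaching 9 in 1 library, which limits their precision.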
